A study of Homo sapiens with 12 samples.

Results

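The 8 genes described here code for proteins that shorten the life of mRNAs: ZFP36, ZFP36L1 and ZFP36L2, and BTG1, BTG2, BTG3, TOB1 and TOB2. They were taken by name from a table of read counts for 58735 genes, in which each of the 8 names stood on 1 row, and all 8 were among the 16618 genes that reached the mean of 10 raw counts required for testing. Polyadenylated RNA was sequenced from TIGK, an immortalized line of human gingival keratinocytes, and HaCaT, an immortalized line of human skin keratinocytes. Each line was either left untreated or given 5 mM H2O2 for 3 h, which makes 4 groups with 3 libraries apiece. The time at which RNA was taken from untreated cells is not stated. All 4 groups were kept in the same medium (DermaLife K Keratinocyte Complete Medium) and grown to confluency. Oral and skin keratinocytes were each represented by 1 line, so tissue and line cannot be told apart. The labels do not say whether replicates were separate cultures, so p-values measure the spread between these libraries, which may be technical. In RNA from whole cultures, fewer cells expressing a gene and less RNA per cell cannot be told apart.

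The libraries held 30426401 to 49034244 counts, and the smallest raw count of any of the 8 genes in any library was 517, of BTG2. All 10 keratinocyte markers examined, among them KRT5 and KRT14, were above the count minimum, with a summed level of 44806 to 56287 CPM (counts scaled by the size of the library), whereas the summed markers of fibroblasts, melanocytes, immune cells and endothelium lay between 0.193 and 25.8 CPM. The share of counts on the mitochondrial chromosome was 3.33% to 3.45% in untreated TIGK and 1.39% to 1.50% after H2O2, and 6.10% to 6.26% and 3.30% to 3.51% in HaCaT, and its part in the results below was not tested. Replicate 3 of H2O2-treated HaCaT stood apart for these genes: it was the library farthest from the other 2 of its group for 7 of the 8, where no other library was so for more than 5. This was not particular to the 8. Over the genes tested, its squared differences from replicates 1 and 2 were 30.3 and 20.5 times counting noise, against 10.0 between those 2. Its log2 deviation (root mean square) was 0.270, beside 0.263 for replicate 1 and 0.233 for replicate 2. For the 8 genes, values without replicate 3 of treated HaCaT are given wherever they change a call. For other genes, a lost call is given as the number of fits without 1 library, or as the libraries left out. Calls that other genes gained in such fits are not given.

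Proteins of the ZFP36 family (ZFP36 is also called tristetraprolin) carry a pair of zinc fingers that bind AU-rich elements in the 3′ untranslated region (UTR) of short-lived mRNAs, among them those of cytokines and immediate early genes, and bring in the CCR4-NOT deadenylase, which removes the poly(A) tail. BTG and TOB proteins share a domain that binds the CNOT7 and CNOT8 nucleases of the same complex, and several of them link it to poly(A)-binding protein. Several of these genes are themselves switched on quickly by stress or growth factors, and their own mRNAs can be short-lived. In keratinocytes, ZFP36 is known as a brake on inflammatory transcripts.

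The word that ZFP36 proteins bind, the heptamer UAUUUAU, was looked for in the 3′ UTRs of the 8 mRNAs, read from the Ensembl canonical transcripts of GENCODE release 44 (GRCh38). ZFP36, ZFP36L1 and ZFP36L2 had 3 heptamers each, in 3′ UTRs of 708, 1871 and 1917 bases, a number reached by 7.08% of the genes tested that have a 3′ UTR. BTG3 had 2, BTG1, BTG2 and TOB2 had 1 each, and TOB1 had 0. For ZFP36L1 the transcript with the longest coding sequence has a 3′ UTR of 211 bases with 0 heptamers, so that its number depends on the transcript. The sites of 30 bases below show the heptamers, in capitals, for the ZFP36 family and for BTG3, from base 489, 1169, 843 and 234 of the 3′ UTR in turn, and the site of ZFP36 holds 2 of its 3.
ZFP36: ccuuUAUUUAUgacgacuuUAUUUAUucua
ZFP36L1: uuaucaaaacgUAUUUAUugccaaacuaug
ZFP36L2: acuauuuaacuUAUUUAUuaucuugugaaa
BTG3: uuggacuugagUAUUUAUauauugugcauc

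Promoters, taken as 250 bases before to 50 after a start site in RefSeq (GRCh38.p14), were at hand for 7 of the 8 genes, with 2 start sites each for ZFP36L1 and TOB1 and none for ZFP36L2. They were searched on both strands for the cAMP response element TGACGTCA, the AP-1 site TGACTCA or TGAGTCA, the EGR site GCGTGGGCG or GCGGGGGCG, and the CArG box of serum response factor, the elements through which stress and growth signals reach many immediate early genes. The cAMP response element was found in 1 of the 2 promoters of ZFP36L1, at base -52 from the start, and occurs in 1.85% of all 35116 promoters. Its shorter form TGACG, also searched, occurs in 24.6% of promoters. It was found in the promoters of BTG1 and BTG2, in 1 of TOB1 and in both of ZFP36L1, in 1 of these within the full element. The promoters of ZFP36, BTG3 and TOB2 did not hold it. An EGR site was found in the BTG2 promoter, at base -151, and occurs in 5.77%. The AP-1 site (4.95% of promoters) and the CArG box (1.29%) were found in none of the 9 promoters, which says only that these letters are not in these windows. The promoter of ZFP36, the gene that rose most, is shown first (chr19:39406597-39406896, plus strand), followed by that of ZFP36L1 with the cAMP response element in capitals (chr14:68793367-68793666, minus strand) and that of BTG2 with the EGR site in capitals (chr1:203305269-203305568, plus strand).
ZFP36: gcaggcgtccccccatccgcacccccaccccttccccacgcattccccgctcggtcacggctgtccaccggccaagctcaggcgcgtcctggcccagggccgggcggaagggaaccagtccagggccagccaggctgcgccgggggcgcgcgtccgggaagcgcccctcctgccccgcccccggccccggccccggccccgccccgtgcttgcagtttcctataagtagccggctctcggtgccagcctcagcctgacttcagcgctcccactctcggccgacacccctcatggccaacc
ZFP36L1: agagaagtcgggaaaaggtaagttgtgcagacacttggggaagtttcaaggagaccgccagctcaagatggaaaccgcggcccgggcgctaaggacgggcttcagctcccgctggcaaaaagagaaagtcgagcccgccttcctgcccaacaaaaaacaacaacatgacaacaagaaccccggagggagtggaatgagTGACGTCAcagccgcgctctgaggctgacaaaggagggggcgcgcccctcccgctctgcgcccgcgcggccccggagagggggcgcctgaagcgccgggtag
BTG2: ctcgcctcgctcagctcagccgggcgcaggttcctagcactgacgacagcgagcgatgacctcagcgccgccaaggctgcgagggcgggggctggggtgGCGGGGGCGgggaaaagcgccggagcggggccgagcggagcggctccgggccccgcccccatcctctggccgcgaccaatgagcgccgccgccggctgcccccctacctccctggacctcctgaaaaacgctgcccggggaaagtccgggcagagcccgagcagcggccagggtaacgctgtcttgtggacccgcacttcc

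Each gene was tested with edgeR's quasi-likelihood F test in a fit of all 16618 genes and 12 libraries, two-sided, and a change was called at an adjusted p under 0.01 (Benjamini-Hochberg over all genes tested). After H2O2, 5 of the 8 genes were higher in TIGK (ZFP36, ZFP36L1, BTG1, BTG2 and TOB1) and 1 was lower (TOB2), where 10.2% of all genes tested were called higher and 12.9% lower. In HaCaT 4 were higher (ZFP36, BTG2, BTG3 and TOB1) and 2 lower (ZFP36L2 and TOB2), against 18.9% and 15.2% of all genes. The median log2 fold change of the 8 was 0.58 in TIGK and 0.38 in HaCaT, against 0.01 and 0.04 over all genes. ZFP36, BTG2 and TOB1 were thus called higher in both lines and TOB2 lower in both. The responses of the lines differed for 5 of the 8: that of TIGK was the higher for ZFP36L1, ZFP36L2 and BTG1 and the lower for ZFP36 and BTG2, where 2.32% of all genes were called in the first direction and 2.98% in the second. Between untreated HaCaT and TIGK, 4 of the 8 were higher in HaCaT (29.1% of all genes) and 3 lower (30.8%), and after H2O2 2 were higher (30.2%) and 3 lower (29.8%).

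**Figure D1:**
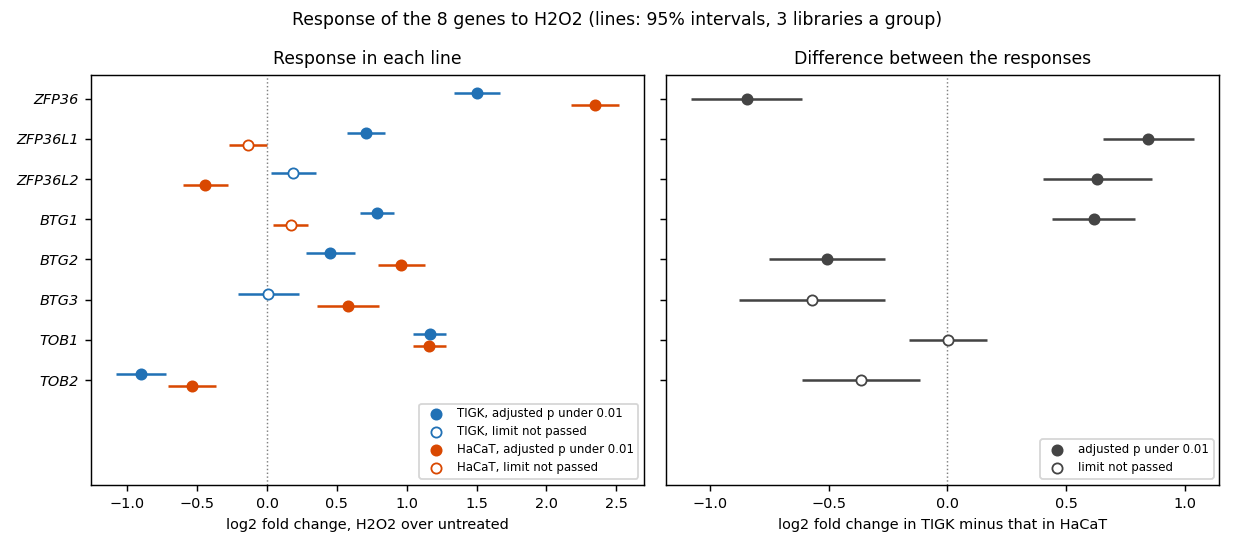
Left, log2 fold change after H2O2 of each gene in TIGK (blue) and HaCaT (orange), right, the change in TIGK minus that in HaCaT; points are edgeR estimates from 3 libraries a group, lines their 95% intervals, and filled points passed an adjusted p of 0.01. TOB1 rose by the same amount in both lines (1.16 and 1.16), ZFP36 rose more in HaCaT (2.35) than in TIGK (1.50), and ZFP36L1, ZFP36L2 and BTG1 stood higher in TIGK on the right.

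ZFP36 (ENSG00000128016, chromosome 19, 39406813 to 39409412, plus strand), the founding member of its family, rose most. Its normalized counts, which are raw counts scaled by trimmed mean of M values (TMM) to 1 common library size, were 2513, 2284 and 2421 in the untreated TIGK libraries and 6917, 6312 and 7236 after H2O2. In HaCaT they were 1056, 1214 and 1141 before and 6132, 6193 and 5029 after. All treated libraries of a line lay above all its untreated ones, and untreated HaCaT held the lowest level of the 4 groups. The log2 fold change was 1.50 (SE 0.079, adjusted p = 4.4e-11) in TIGK, a 2.84-fold rise, and 2.35 (SE 0.082, adjusted p = 1.45e-13) in HaCaT, a 5.09-fold rise. The response of TIGK minus that of HaCaT was -0.85 (SE 0.11, adjusted p = 5.8e-05) on the log2 scale. HaCaT began lower, at -1.08 (SE 0.081, adjusted p = 6.02e-10) relative to TIGK, and after H2O2 the distance was -0.24 (SE 0.076, adjusted p = 0.00948). That last call depended on single libraries: leaving out any replicate of untreated HaCaT, replicate 3 of treated HaCaT, or replicate 1 or 3 of treated TIGK lost it, at values from -0.25 to -0.14 and adjusted p from 0.0105 to 0.0572. Without replicate 3 of treated HaCaT the value was -0.14 (adjusted p = 0.0572).

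ZFP36L1 (ENSG00000185650, chromosome 14, 68787660 to 68796253, minus strand), a family member known for its part in the cell cycle and in differentiation, was the most abundant of the 8 and stood at percentile 99.3 of all genes tested by mean count. It held 25783, 22723 and 23980.3 normalized counts in untreated TIGK and 39108, 40439.8 and 39075 after H2O2. In HaCaT the values were 26793, 27787 and 29876 before and 27487, 26217 and 23145 after. The treated TIGK libraries lay above all other libraries, while the treated and untreated groups of HaCaT overlapped. For ZFP36L1 the log2 fold change was 0.71 (SE 0.065, adjusted p = 1.27e-07) in TIGK and -0.14 (SE 0.065, adjusted p = 0.0938) in HaCaT, and the difference between the responses was 0.85 (SE 0.092, adjusted p = 6.89e-06). Untreated HaCaT was higher than untreated TIGK by 0.22 (SE 0.065, adjusted p = 0.00554), and after H2O2 the order was the other way round, at -0.63 (SE 0.065, adjusted p = 6.54e-08). The call between the untreated lines was lost in 4 of 12 fits without 1 library, those without replicate 2 or 3 of untreated HaCaT or of untreated TIGK, with values of 0.18 to 0.23, and when libraries were scaled by their totals alone (0.15, adjusted p = 0.0565).

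ZFP36L2 (ENSG00000152518, chromosome 2, 43222402 to 43226609, minus strand), the third expressed family member, moved the opposite way from ZFP36 in HaCaT. Its normalized counts were 8192, 7106 and 7819 in untreated TIGK and 8539, 8747 and 9046 after H2O2, groups that did not overlap although the change did not pass the limit. In HaCaT they fell from 11367, 12043 and 13007 to 9519, 9593 and 7678, again without overlap. The log2 fold change was 0.19 (SE 0.077, adjusted p = 0.0649) in TIGK and -0.44 (SE 0.077, adjusted p = 0.000143) in HaCaT, with a difference of 0.63 (SE 0.11, adjusted p = 0.000835). The TIGK value passed the limit with DESeq2 on the TIGK libraries alone (0.18, adjusted p = 0.0096) and without a count filter (0.22, adjusted p = 0.00229). Untreated HaCaT held more of it than untreated TIGK (0.66, SE 0.077, adjusted p = 3.63e-07), whereas after H2O2 the lines overlapped and the difference was 0.02 (SE 0.077, adjusted p = 0.789), with a 95% interval of -0.14 to 0.19.

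To compare genes with each other, counts were also divided by the gene length given in the deposited table (RPKM, counts scaled by gene length and library size), and the 3 ZFP36 genes were summed per library. The sum was 233, 206 and 219.6 RPKM in untreated TIGK and 367, 368 and 375 after H2O2. In HaCaT it was 242, 255 and 272 before and 302, 297 and 249.9 after. The treated TIGK libraries thus lay above all others, whereas in HaCaT the treated and untreated libraries overlapped, with replicate 3 the lowest of the treated ones. The makeup of the sum does not depend on how libraries are scaled. The share of ZFP36 itself went from 15% ± 0.238 (SD, n = 3) to 25.3% ± 1.53 in TIGK, and from 6.09% ± 0.404 to 28.0% ± 0.542 in HaCaT. The share of ZFP36L2 went from 26.2% ± 0.394 to 17.7% ± 0.323 in TIGK and from 35.3% ± 0.330 to 23.5% ± 0.605 in HaCaT. ZFP36L1 held the largest share in all 4 groups, 58.8% ± 0.401 and 57.1% ± 1.58 in untreated and treated TIGK and 58.6% ± 0.409 and 48.4% ± 1.14 in HaCaT. No test was run on these sums and shares, and an exact permutation test of 3 libraries against 3 could not go below a p of 0.1.

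TOB1 (ENSG00000141232, chromosome 17, 50862223 to 50867978, minus strand), which binds both the CCR4-NOT nucleases and poly(A)-binding protein and is known as an antiproliferative gene, had the most even response. Its normalized counts were 1401, 1458 and 1454 in untreated TIGK and 3212, 3225 and 3229.5 after H2O2. In HaCaT they were 1423, 1429 and 1331 before and 3165, 3194 and 3005 after. Every treated library was above every untreated one, and the treated TIGK libraries had an SD of 9.28 around their mean of 3222. The log2 fold change was 1.16 (SE 0.056, adjusted p = 1.3e-11) in TIGK and 1.16 (SE 0.056, adjusted p = 1.63e-11) in HaCaT, a rise of 2.24-fold in each. The difference between the responses was 0.00 with a 95% interval of -0.16 to 0.17. The lines did not pass the limit before (-0.04, SE 0.057, adjusted p = 0.508) or after H2O2 (-0.05, SE 0.054, adjusted p = 0.467), with intervals of -0.16 to 0.08 and -0.16 to 0.07.

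TOB2 (ENSG00000183864, chromosome 22, 41433492 to 41447023, minus strand), its closest relative, fell in both lines. It held 1803, 1709.7 and 1831 normalized counts in untreated TIGK and 909.7, 953 and 997 after H2O2. In HaCaT the values were 2893, 2811 and 2958 before and 2181, 2141 and 1655 after, with replicate 3 lowest. No groups of a line overlapped, and the treated TIGK libraries were the lowest of all 12. Its log2 fold change was -0.90 (SE 0.085, adjusted p = 1.99e-07) in TIGK and -0.54 (SE 0.082, adjusted p = 4.08e-05) in HaCaT. The difference of -0.36 (SE 0.12, adjusted p = 0.0509) did not pass the limit with all libraries and passed it without replicate 3 of treated HaCaT, at -0.48 (adjusted p = 0.000671). Without replicate 1 of treated HaCaT it was -0.23 (adjusted p = 0.187), and the other fits without 1 library did not pass either. HaCaT held more TOB2 than TIGK before (0.70, SE 0.082, adjusted p = 3.79e-07) and after H2O2 (1.06, SE 0.085, adjusted p = 1.73e-09).

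BTG1 (ENSG00000133639, chromosome 12, 92140278 to 92145897, minus strand), an antiproliferative gene that is abundant in resting cells, rose in TIGK. Its normalized counts were 2898, 2694 and 2692 in untreated TIGK and 4802, 4759 and 4722 after H2O2. In HaCaT they were 1964, 1885 and 1987 before and 2088, 2117 and 2363 after, without overlap but with a change that did not pass the limit. This came to a log2 fold change of 0.79 (SE 0.058, adjusted p = 6.7e-09) in TIGK and 0.17 (SE 0.059, adjusted p = 0.0248) in HaCaT, and the difference was 0.62 (SE 0.083, adjusted p = 8.01e-05). TIGK held more BTG1 than HaCaT already before H2O2 (-0.50, SE 0.059, adjusted p = 3.31e-07 for HaCaT minus TIGK) and the distance after H2O2 was -1.12 (SE 0.059, adjusted p = 3.14e-12).

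BTG2 (ENSG00000159388, chromosome 1, 203305491 to 203309602, plus strand), a known target gene of p53 and the least abundant of the 8 in mean count, rose in both lines. It held 547, 556 and 540.4 normalized counts in untreated TIGK and 759, 726 and 765 after H2O2. In HaCaT the values were 926, 864 and 751 before and 1582, 1735 and 1633 after. The groups of each line did not overlap, and the treated HaCaT libraries were the highest of all 12. The log2 fold change was 0.45 (SE 0.084, adjusted p = 0.000354) in TIGK and 0.96 (SE 0.080, adjusted p = 3.28e-08) in HaCaT. The difference of -0.51 (SE 0.12, adjusted p = 0.00763) lay close to the limit: it was lost in 10 of 12 fits without 1 library, at adjusted p from 0.0103 to 0.0496 and values from -0.52 to -0.42, and kept without replicate 1 of untreated or replicate 3 of treated HaCaT. HaCaT held more BTG2 than TIGK before (0.63, SE 0.083, adjusted p = 1.67e-06) and after H2O2 (1.14, SE 0.081, adjusted p = 2.86e-10).

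BTG3 (ENSG00000154640, chromosome 21, 17593653 to 17612947, minus strand), a more distant member of the family, was called in HaCaT. Its normalized counts were 1411, 1463 and 1219.9 in untreated TIGK and 1411, 1414 and 1301 after H2O2, with overlapping groups. In HaCaT they were 947, 957 and 871 before and 1219, 1247 and 1679 after, where replicate 3 stood far above the other 2. In the fit, its log2 fold change was 0.01 (SE 0.10, adjusted p = 0.952) in TIGK, with a 95% interval of -0.21 to 0.23, and 0.58 (SE 0.10, adjusted p = 0.000201) in HaCaT. Without replicate 3 of treated HaCaT the latter was 0.42 (adjusted p = 0.000616). The difference between the responses was -0.57 (SE 0.15, adjusted p = 0.0155), which did not pass the limit, but passed it with DESeq2 (-0.55, adjusted p = 0.00622), without a count filter (-0.51, adjusted p = 0.000828) and without replicate 3 of untreated TIGK (-0.65, adjusted p = 0.00725). Untreated HaCaT held less BTG3 than untreated TIGK (-0.56, SE 0.10, adjusted p = 9.46e-05), and after H2O2 the lines overlapped (0.01, SE 0.10, adjusted p = 0.944, 95% interval -0.21 to 0.23).

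The summed level of the 5 BTG and TOB genes, with TMM scaling, was alike in the lines. It was 65.0, 64.6 and 62.2 RPKM in untreated TIGK and 64.8, 63.4 and 61.6 in untreated HaCaT. After H2O2 it was 92.3, 92.2 and 91.3 in TIGK and 90.0, 92.1 and 92.7 in HaCaT. All treated libraries lay above all untreated ones, and within each condition the lines overlapped. That overlap depends on the scaling: the TMM factors were 1.01 to 1.04 in TIGK and 0.962 to 1.00 in HaCaT. Sums scaled by library totals alone are not given. The genes behind the sum differed. The share of TOB1 went from 24.6% ± 0.992 (SD, n = 3) to 38.3% ± 0.319 in TIGK and from 24.1% ± 0.519 to 37.3% ± 1.59 in HaCaT, and that of TOB2 from 16.8% ± 0.898 to 6.26% ± 0.321 and from 27.6% ± 1.22 to 13.1% ± 2.07. BTG1 made up 29.4% ± 0.119 of the sum in treated TIGK and 13.6% ± 0.791 in treated HaCaT. BTG2 made up 8.15% ± 0.255 and 18% ± 0.711 in the same groups.

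**Figure D2:**
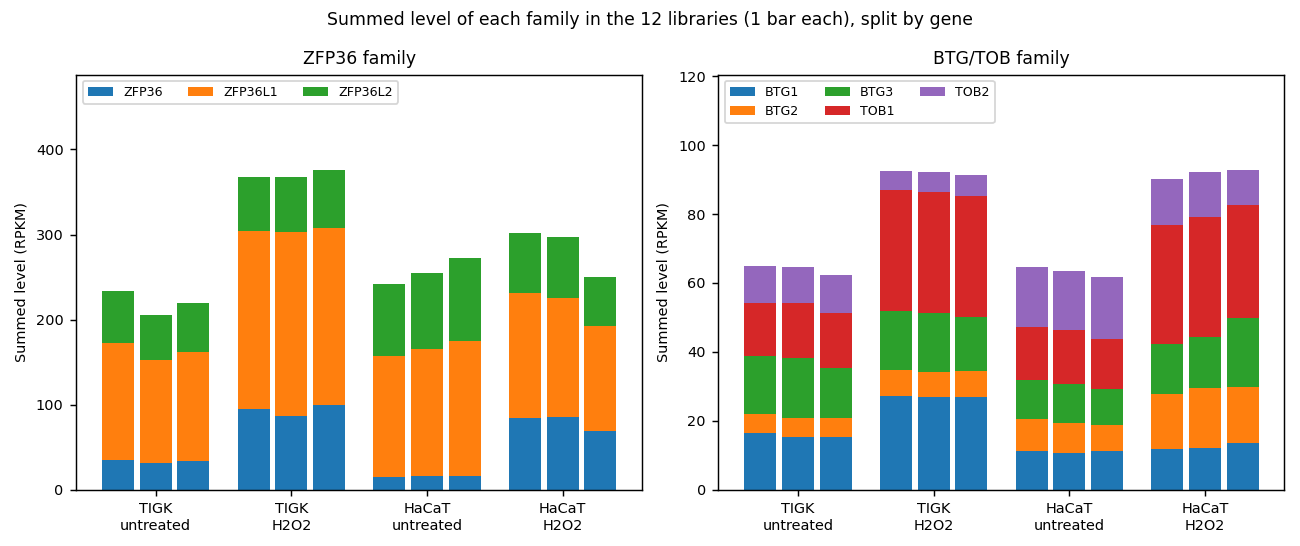
Summed RPKM of the 3 ZFP36 genes (left) and of the 5 BTG and TOB genes (right) in each of the 12 libraries, 1 bar a library, with colours for the genes. The ZFP36 sum rose above all other libraries in treated TIGK, and the BTG/TOB sum lay near 92.0 RPKM in treated TIGK and 91.6 in treated HaCaT while its makeup differed.

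Per length, ZFP36L1 had the highest level of the 8 in every group, from 129 ± 8.22 RPKM (SD, n = 3) in untreated TIGK to 211 ± 4.16 in treated TIGK. In untreated TIGK it was followed by ZFP36L2 (57.5 ± 4.11) and ZFP36 (33.0 ± 1.58), and in treated TIGK by ZFP36 (93.6 ± 6.44) before ZFP36L2 (65.5 ± 1.90). Among the BTG and TOB genes of untreated TIGK, BTG3, TOB1 and BTG1 had overlapping levels (16.3 ± 1.53, 15.7 ± 0.345 and 15.7 ± 0.674) above TOB2 (10.8 ± 0.384) and BTG2 (5.48 ± 0.0768). In treated TIGK the order was TOB1 (35.2 ± 0.102), BTG1 (27.0 ± 0.229), BTG3 (16.4 ± 0.771), BTG2 (7.50 ± 0.208) and TOB2 (5.76 ± 0.263), with no overlap between neighbours. In untreated HaCaT, the range of ZFP36 (15.6 ± 1.09) overlapped that of TOB1 (15.2 ± 0.602) and lay below that of TOB2 (17.4 ± 0.444). In treated HaCaT the ranges of ZFP36 (79.3 ± 8.98) and ZFP36L2 (66.6 ± 8.09) overlapped, as did those of BTG2 (16.5 ± 0.777) and BTG3 (16.5 ± 3.08). Within each treated HaCaT library, however, ZFP36 (84.1, 84.9 and 69.0) was above ZFP36L2 (71.0, 71.5 and 57.3).

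**Figure D3:**
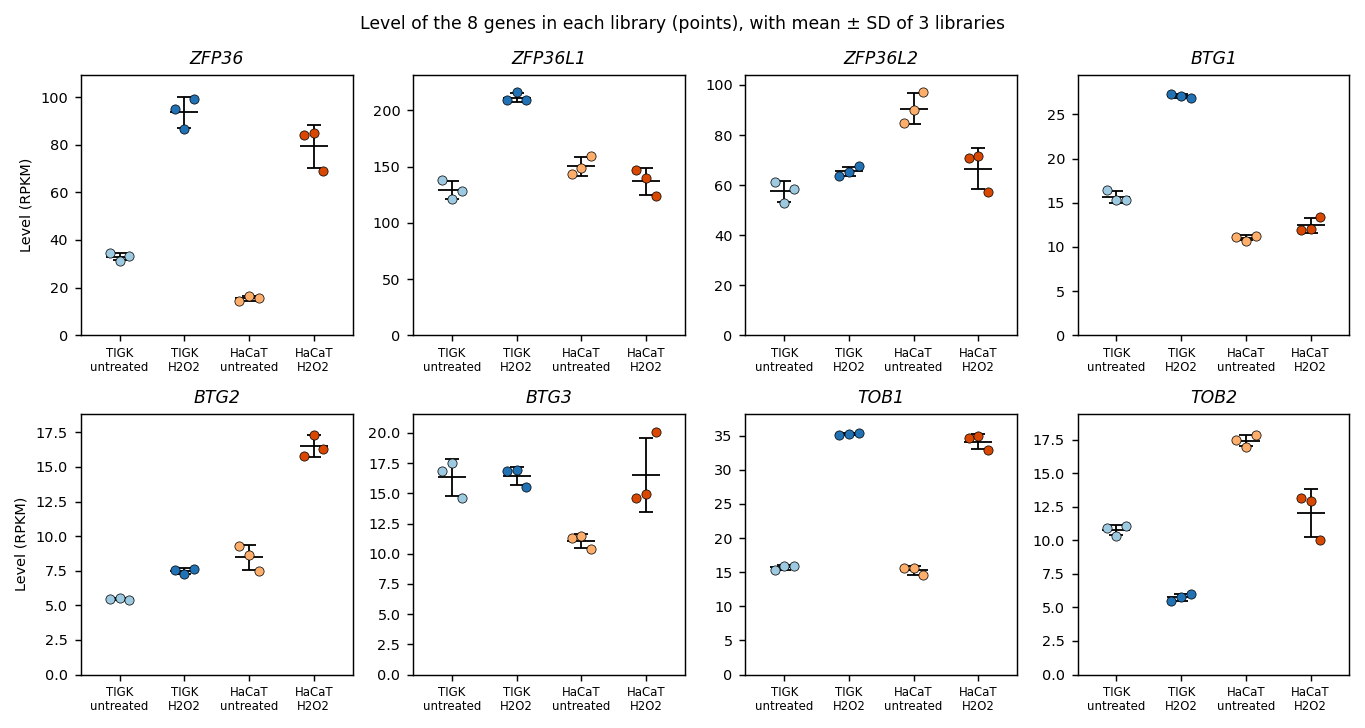
Level of each of the 8 genes in RPKM (vertical axis, from 0) in the 3 libraries of each group (points), with the mean and SD in black. ZFP36 and TOB1 rose in both lines without overlap, TOB2 fell in both, ZFP36L1 and BTG1 stood highest in treated TIGK, and 1 library of treated HaCaT lies apart for BTG3.

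The genes whose log2 CPM followed each of the 8 most closely over the 12 libraries were found by Pearson's r among 12608 genes with at least 100 normalized counts in their highest group. These r describe 12 libraries that fall into 4 groups and share their scaling, and carry no p. ZFP36 went with PPP1R15A, EGR1 and SLC9A3R1 (r = 0.989, 0.988 and 0.988). EGR1 is an immediate early transcription factor, and PPP1R15A codes for the GADD34 subunit that restores translation after stress. TOB1 went with NR4A1, IRF2 and CDK2AP2 (r = 0.991, 0.987 and 0.984), of which NR4A1 is an immediate early nuclear receptor with a log2 fold change of 4.89 in TIGK and 4.54 in HaCaT. ZFP36L1 went with KLF6, TOM1L2 and PPP1R3D (r = 0.977, 0.952 and 0.952), and KLF6, a zinc finger transcription factor, showed its contrast between the lines with log2 fold changes of 1.64 in TIGK and -0.12 in HaCaT. BTG1 went with CROT, RHOB and ADM (r = 0.990, 0.987 and 0.984), where RHOB codes for a stress-inducible small GTPase. The nearest genes were FAM84B, CCP110 and CGN (r = 0.949, 0.945 and 0.944) for ZFP36L2, RNF167, RRAS and LRRC8D (r = 0.991, 0.985 and 0.983) for BTG2, METTL9, DRG1 and C19orf48 (r = 0.969, 0.961 and 0.952) for BTG3 and CHSY1, IRGQ and PLXNB2 (r = 0.992, 0.991 and 0.991) for TOB2. None of the 8 was among the nearest of another.

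Genes of the deadenylases and of the subunits and partners that work with them moved in both directions. Of 14 such genes, not all of which code for enzymes, 3 were higher and 1 lower in TIGK (10.2% and 12.9% of all genes). In HaCaT 4 and 1 were so (18.9% and 15.2%). Between the responses 0 differed by edgeR or by DESeq2 (1 had an unadjusted edgeR p under 0.05). Over all genes tested, edgeR called 2.32% with the higher response in TIGK and 2.98% with the lower. The 0 of 14 therefore lies near those shares. The log2 fold changes lay between -0.25 and 0.36 in TIGK and between -0.29 and 0.32 in HaCaT. The scaffold CNOT1 had log2 fold changes of -0.10 (SE 0.063, adjusted p = 0.216) in TIGK and -0.29 (SE 0.063, adjusted p = 0.00119) in HaCaT. The nucleases CNOT7 and CNOT8, to which BTG and TOB proteins bind, had log2 fold changes of -0.08 and -0.01 in TIGK and of 0.21 and 0.18 in HaCaT, of which CNOT7 in HaCaT passed the limit (adjusted p = 0.00642), a call lost in 9 of 12 fits without 1 library, at adjusted p up to 0.044. The nucleases CNOT6 and CNOT6L stood at -0.23 and -0.11 in TIGK and -0.19 and -0.19 in HaCaT, of which CNOT6 in TIGK passed, a call lost in 10 of 12 fits without 1 library, at adjusted p up to 0.0515. PARN, a deadenylase outside CCR4-NOT, rose in both lines, by 0.34 in TIGK and 0.27 in HaCaT. CNOT3 (0.30, lost without replicate 2 or 3 of untreated TIGK, or 1 of treated TIGK) and PAN2 (0.36, lost without replicate 1 or 2 of untreated TIGK, or 3 of treated TIGK) were also called in TIGK, and CNOT10 (0.32) in HaCaT. Of 5 genes of poly(A)-binding proteins and their partners, the inhibitor PAIP2 rose in both lines (0.38 in TIGK and 0.30 in HaCaT, the latter lost in 8 of 12 fits without 1 library, at adjusted p up to 0.0358) and the activator PAIP1 in HaCaT (0.33). Over all genes, 10.2% were called higher in TIGK and 18.9% in HaCaT.

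Downstream of deadenylation, 15 genes of decapping and 5′-to-3′ decay and 15 of the RNA exosome were tested. Of the former, 2 were higher and 2 lower in TIGK, against 10.2% and 12.9% of all genes, and 4 and 5 in HaCaT, against 18.9% and 15.2%. The decapping enzyme DCP2 fell in both lines, with log2 fold changes of -0.71 (SE 0.091, adjusted p = 7.63e-06) in TIGK and -0.62 (SE 0.091, adjusted p = 2.3e-05) in HaCaT. The helicase DDX6, which joins CCR4-NOT to decapping, fell as well, with -0.22 (SE 0.053, adjusted p = 0.0033) in TIGK and -0.55 (SE 0.054, adjusted p = 2.59e-07) in HaCaT, and was the only gene of this list called between the responses (0.32, SE 0.076, adjusted p = 0.00874). Its call in TIGK was lost in 5 of 12 fits without 1 library, at adjusted p up to 0.0274, and that between the responses was lost in 8 of 12 fits without 1 library, at adjusted p up to 0.028. Between the responses, 2.32% of all genes were called higher in TIGK and 2.98% lower. The ring subunits LSM2 (0.40 in TIGK, 0.78 in HaCaT) and LSM6 (0.41 and 0.47) rose in both lines. In TIGK the call of LSM2 was lost without replicate 3 of untreated TIGK, or 1 or 2 of treated TIGK and that of LSM6 lost in 5 of 12 fits without 1 library, at adjusted p up to 0.0396, and in HaCaT that of LSM6 was lost without replicate 2 or 3 of untreated HaCaT, or 3 of treated HaCaT. Of the exosome genes, 2 were higher and 2 lower in TIGK and 3 and 1 in HaCaT, beside the same shares of all genes. The cytoplasmic nuclease DIS3L rose by 0.47 in TIGK and 0.65 in HaCaT, and the nuclear one, DIS3, fell, with -0.26 in TIGK (lost without replicate 3 of treated TIGK) and -0.31 in HaCaT. EXOSC7 (0.39, lost in 7 of 12 fits without 1 library, at adjusted p up to 0.0539) and EXOSC6 (-0.31, lost in 4 of 12 fits without 1 library, at adjusted p up to 0.0157) were called in TIGK, and EXOSC5 (0.56, lost without replicate 3 of untreated HaCaT, or 2 of treated HaCaT) and EXOSC4 (0.42) in HaCaT.

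Other proteins that choose mRNAs for decay moved in either direction. ZC3H12A (regnase-1), a nuclease that cuts stem-loops in inflammatory mRNAs, rose in TIGK from 665 ± 19.5 normalized counts (SD, n = 3) to 1761 ± 38.2, whereas in HaCaT it stood at 882 ± 72.8 before and 809 ± 85.3 after. Its log2 fold change was 1.41 (SE 0.084, adjusted p = 3.08e-10) in TIGK and -0.13 (SE 0.085, adjusted p = 0.233) in HaCaT, with a difference of 1.53 (SE 0.12, adjusted p = 1.05e-07), in the same direction as ZFP36L1. Of 12 such regulators, 2 were higher and 2 lower in TIGK (10.2% and 12.9% of all genes), and 1 and 4 in HaCaT (18.9% and 15.2%). ZC3H12A was the only 1 called between the responses, where 2.32% of all genes were called higher in TIGK and 2.98% lower. Its relative ZC3H12C fell in both lines (-0.62 and -0.57), as did the roquin RC3H2 (-0.24, lost in 9 of 12 fits without 1 library, at adjusted p up to 0.0567, and -0.55). TIAL1 rose in TIGK (0.24), ELAVL1 (HuR), which stabilizes AU-rich mRNAs, rose in HaCaT (0.38), and PUM2 fell in HaCaT (-0.20, lost in 4 of 12 fits without 1 library, at adjusted p up to 0.0258). Of 7 microRNA effectors, which use the same deadenylase, 2 fell and 1 rose in TIGK (12.9% and 10.2% of all genes), and 5 fell in HaCaT (15.2%). AGO2, the slicing Argonaute, had log2 fold changes of -1.01 (SE 0.072, adjusted p = 3.42e-09) in TIGK and -1.40 (SE 0.073, adjusted p = 5.13e-11) in HaCaT, and AGO1 of -0.43 and -0.67. AGO3 (-0.45) and TNRC6A (-0.43) fell in HaCaT. TNRC6B, which bridges Argonaute and CCR4-NOT, rose by 0.34 in TIGK (lost without replicate 1 of untreated TIGK) and fell in HaCaT, at -0.63, with a difference of 0.97 (SE 0.11, adjusted p = 1.24e-05).

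The p38 kinase and its partner MK2 (MAPKAPK2) phosphorylate ZFP36 proteins, which keeps them from CCR4-NOT, and the phosphatases DUSP1 and PP2A act the other way. DUSP1, which inactivates p38, went from 5205 ± 1086 normalized counts (SD, n = 3) to 45572 ± 2970.4 in TIGK and from 583 ± 11.0 to 9431 ± 387 in HaCaT. Its log2 fold change was 3.13 (SE 0.10, adjusted p = 3.59e-14) in TIGK and 4.02 (SE 0.11, adjusted p = 4.57e-15) in HaCaT, and the response of TIGK was the smaller (-0.89, SE 0.14, adjusted p = 0.000403), as for ZFP36. MAPKAPK2 fell, with log2 fold changes of -0.41 (SE 0.051, adjusted p = 6.54e-06) in TIGK and -0.22 (SE 0.051, adjusted p = 0.00206) in HaCaT, the latter lost without replicate 3 of untreated HaCaT. MAPK14, which codes for the main p38 kinase, rose by 0.33 in TIGK and 0.20 in HaCaT, the latter lost in 8 of 12 fits without 1 library, at adjusted p up to 0.0667, and MAP2K3, a kinase that activates p38, fell in TIGK (-0.40). Of the 10 genes of this arm, 3 were higher and 2 lower in TIGK, against 10.2% and 12.9% of all genes, and 2 and 1 in HaCaT, against 18.9% and 15.2%. PPP2CA, the catalytic subunit of PP2A, stood at 0.10 and 0.07, neither past the limit.

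**Figure D4:**
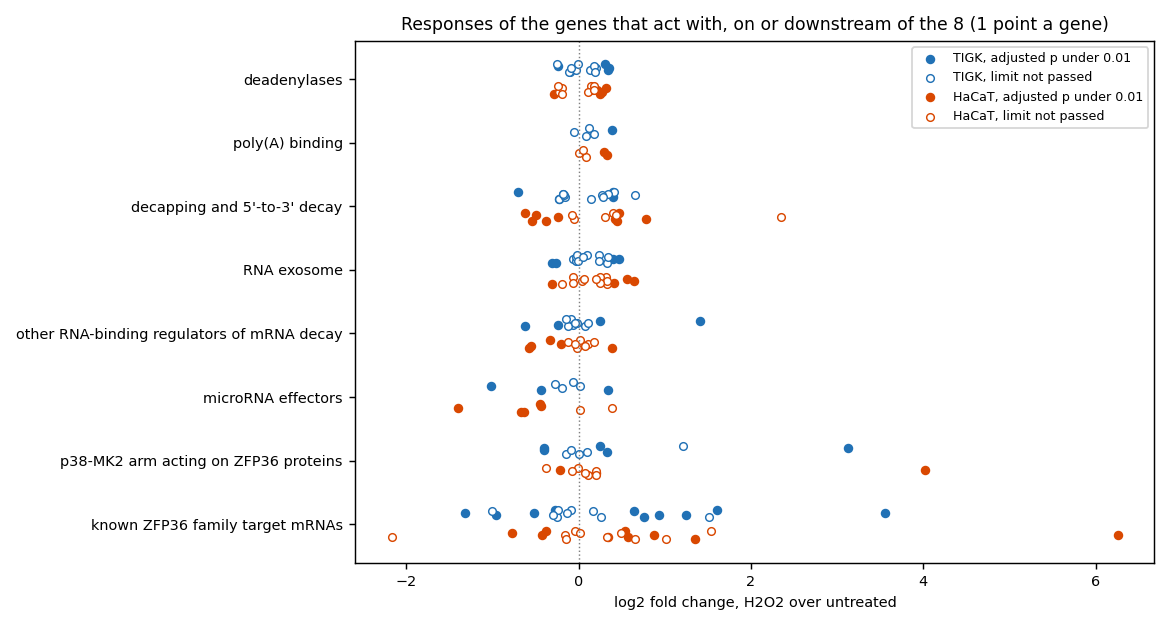
Log2 fold change after H2O2 (horizontal axis) of each gene of 8 lists, in TIGK (blue) and HaCaT (orange), with filled points for an adjusted p under 0.01. The genes of the deadenylase list lie between -0.29 and 0.36, while DUSP1 (at 3.13 and 4.02), ZC3H12A in TIGK (1.41) and FOS among the target mRNAs (3.56 and 6.26) lie far from that range.

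Of 20 mRNAs known as targets of the ZFP36 family, a list written from general knowledge, 19 were tested (TNF, with at most 12.4 normalized counts in any group mean, was not). In TIGK 6 were higher and 4 lower, against 10.2% and 12.9% of all genes, and in HaCaT 6 and 3, against 18.9% and 15.2%. The median over the 19 targets (log2 fold change) came to -0.09 in TIGK and 0.34 in HaCaT, beside 0.01 and 0.04 over all genes. FOS, the AP-1 subunit, rose by 3.56 (SE 0.15, adjusted p = 2.78e-12) in TIGK and 6.26 (SE 0.18, adjusted p = 5.2e-15) in HaCaT. PTGS2, the inducible prostaglandin synthase, rose by 0.93 and 0.57, IER3, an early response gene, by 1.61 and 0.54, and the kinase PIM1 by 1.24 and 0.34 (the last lost without replicate 1 or 2 of untreated HaCaT, or 1 of treated HaCaT). NOTCH1 fell in both lines, at -0.51 and -0.43, and so did the cyclin CCND1, at -0.27 (lost without replicate 2 of treated TIGK) and -0.38. The neutrophil chemokine CXCL1 fell in TIGK and rose in HaCaT: it went from 641 ± 107 normalized counts to 257 ± 25.2 in TIGK and from 328 ± 52.5 to 606 ± 45.6 in HaCaT, log2 fold changes of -1.32 and 0.88. CXCL8 stood at -0.25 in TIGK, not past the limit, and 1.35 in HaCaT, and CXCL3 at -0.96 in TIGK (lost in 5 of 12 fits without 1 library, at adjusted p up to 0.0546) and 0.33 in HaCaT, not past the limit. CXCL2, of the same family, passed in neither line (-0.09 and -0.05).

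The responses of the lines differed for 7 of these 19 mRNAs, 4 higher and 3 lower in TIGK, where 2.32% and 2.98% of all genes were called. Those of CXCL1 (-2.20, SE 0.19, adjusted p = 5.01e-07), CXCL8 (-1.61, SE 0.22, adjusted p = 9.63e-05) and FOS (-2.70, SE 0.22, adjusted p = 1.69e-07) were lower in TIGK. Those of PLAU (1.42, SE 0.093, adjusted p = 1.11e-08), IER3 (1.06, SE 0.12, adjusted p = 7.13e-06), PIM1 (0.90, SE 0.11, adjusted p = 4.08e-05) and MYC (0.90, SE 0.072, adjusted p = 1.44e-07) were higher in TIGK. PLAU, the urokinase gene, rose in TIGK (0.64) and fell in HaCaT (-0.78). MYC rose in TIGK (0.76) and did not pass the limit in HaCaT (-0.14).

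Beyond these lists, the 13241 protein-coding genes tested that have a 3′ UTR (98.3% of the protein-coding genes tested) were split by the number of AU-rich heptamers in it, here in the transcript with the longest coding sequence. In TIGK 11.4% of the 8813 genes without a heptamer were lower after H2O2, and 22.6% of the 853 with 3 or more. In HaCaT the shares were 12.4% and 29.5%. Over all lengths, the shares called higher were 11.9% and 10.4% in TIGK and 25.6% and 11.8% in HaCaT. The number of heptamers moved with the length of the 3′ UTR, whose median was 736 bases without a heptamer and 4367 with 3 or more. Genes were therefore also split into 3 classes of equal size by 3′ UTR length. The class of the shortest held only 12 genes with 3 or more heptamers. Within the middle class (up to 1942 bases) the share lower was 13.4% without and 12.4% with 3 or more heptamers in TIGK, and 13.7% and 14.0% in HaCaT. The share higher there was 12.7% and 19.0% in TIGK and 22.5% and 24.8% in HaCaT, so the lower share of rises in HaCaT was not seen at this length. Within the class of the longest 3′ UTRs the share lower was 19.4% and 24.6% in TIGK and 21.8% and 32.4% in HaCaT. With 2 heptamers it was 27.4% in TIGK. The share higher in this class was 8.07% and 9.03% in TIGK and 13.2% and 9.31% in HaCaT. The class has no upper bound, and its longest 3′ UTR was 16815 bases without a heptamer and 32870 with 3 or more. Length can therefore still differ within it. ZFP36 itself, with 3 heptamers in the 713 bases of this transcript's 3′ UTR, rose, as did TOB1, which has 0.

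**Figure D5:**
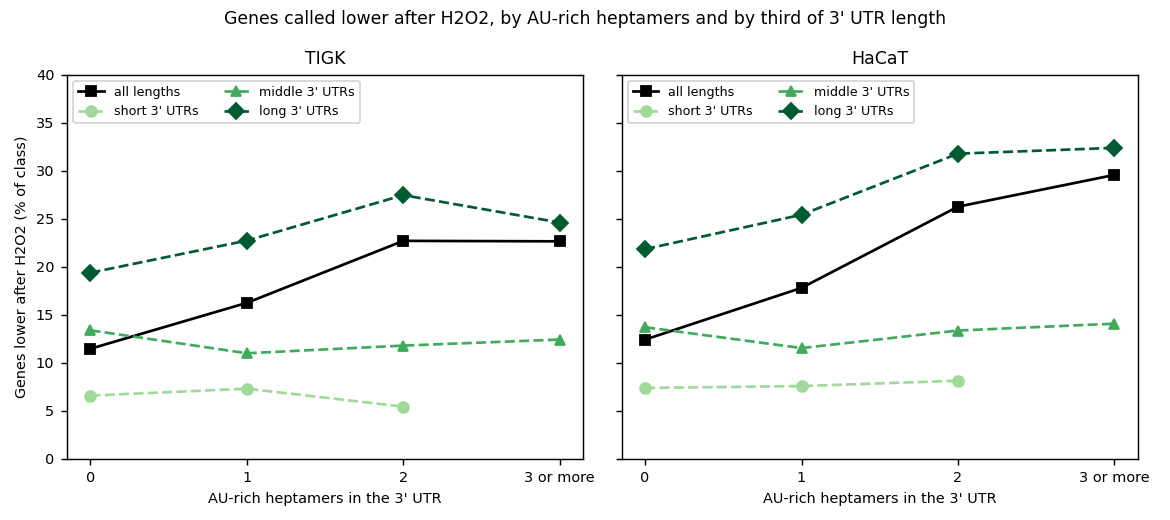
Share of genes called lower after H2O2 (vertical axis, percent of the class) by number of AU-rich heptamers in the 3′ UTR, for all lengths (black) and within 3 classes of 3′ UTR length (green), with points under 20 genes left out. The black lines climb from 11.4% to 22.6% in TIGK and from 12.4% to 29.5% in HaCaT, while within the short and middle length classes the shares lie close to level. The long class holds 720 of the 853 genes with 3 or more heptamers. There the share goes from 19.4% to 24.6% in TIGK, with 27.4% at 2 heptamers, and from 21.8% to 32.4% in HaCaT.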

How the data were processed

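The authors aligned paired reads of polyadenylated RNA to GRCh38 and counted them per gene, and deposited raw counts for 58735 genes in 12 libraries, the only values used here. The submitters' processing notes name HISAT2 2.0.0 and HISAT2 2.0.5, StringTie 1.3.3b and featureCounts 1.5.0-p3, while the annotation release, the strand setting and the treatment of reads with several matches are not given in the sources used here. Reads of overlapping genes can therefore not be told apart from those of BTG1 (LINC01619, at most 34 counts, and AC025164.1, at most 16), BTG3 (BTG3-AS1, at most 16) and TOB1 (TOB1-AS1, at most 15). Gene lengths for RPKM were those in the deposited table. Tables of the authors' own comparisons (log2 fold changes and adjusted p-values) were not used. Groups followed the labels, in which the agent is spelled H2O3 and H2O4 for some replicates and H2O2 in the protocol.

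The 16618 genes whose raw counts averaged 10 or more over the 12 libraries were fitted with edgeR 4.0.16 in R 4.3.3 (TMM scaling, 1 coefficient for each of the 4 groups, quasi-likelihood F test), with Benjamini-Hochberg adjustment over all of them and a limit of 0.01, the filter and limit stated for the study. The 95% intervals rest on the same fit. Normalized counts are scaled to an effective library size of 36274734. The script was tested on simulated data. Alternatives were DESeq2 1.42.0, other scalings, no filter, fits of the groups compared alone, a replicate block and leaving out each library. The 8 genes, the lists and the tests were chosen with earlier results of these data known. All 8 genes are reported, beside the members of each list with the highest and lowest changes past the limit in each line, those past it between the responses, and the scaffold and nucleases of CCR4-NOT, and the 3 genes most like each of the 8. Libraries of a group differed by more than counting noise. The Ensembl canonical transcripts were chosen for the sites after the sequences had been seen. Python 3.11.15 with pandas 2.3.3 and matplotlib 3.10.9 was used for sequences and plots.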

Additional observations from a re-analysis of the deposited data

Results flagged for a closer look

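The results here differed between the lines by the test of the difference itself: the log2 change after H2O2 in TIGK minus that in HaCaT passed an adjusted edgeR p of 0.01. Among the 8 decay factors these were ZFP36 (-0.85), ZFP36L1 (0.85), ZFP36L2 (0.63), BTG1 (0.62) and BTG2 (-0.51). ZFP36 rose in both lines and rose more in HaCaT, where its untreated level was the lower, and ZFP36L1 rose in TIGK while its change in HaCaT did not pass the limit. Among the other genes of mRNA decay they were DDX6 (0.32), which joins CCR4-NOT to decapping, ZC3H12A (1.53), a nuclease for inflammatory mRNAs, TNRC6B (0.97), the bridge from Argonaute to CCR4-NOT, and DUSP1 (-0.89), the phosphatase that inactivates p38. Among the known target mRNAs they were the chemokines CXCL8 (-1.61) and CXCL1 (-2.20), the transcription factors MYC (0.90) and FOS (-2.70), the early response gene IER3 (1.06), the kinase PIM1 (0.90) and the urokinase gene PLAU (1.42). The differences of BTG2 and DDX6 were the least firm, lost in 10 and in 8 of 12 fits without 1 library. Over all genes tested, 2.32% were called with the higher response in TIGK and 2.98% with the lower.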

How the results depend on the processing

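Of 744 recomputed fold changes of the 8 genes, 686 kept their direction and their side of the limit. The number of genes past the limit stayed within 6 to 7 of 8 in TIGK, in HaCaT and between untreated lines, 4 to 5 between treated lines and 4 to 6 for the difference of responses.

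Direction turned only for values near 0 that had not passed the limit. For HaCaT minus TIGK after H2O2, BTG3 was -0.027 with DESeq2 on all libraries, -0.031 with DESeq2 and -0.014 with edgeR on these groups alone, -0.0701 with library totals, -0.019 without a filter, -0.026 with RLE size factors and -0.15 to 0.0805 leaving out 1 library. ZFP36L2 was -0.0103 with DESeq2 on all libraries, -0.014 on these groups alone, -0.051 with library totals, -0.0058 without a filter, -0.0103 with RLE and -0.064 to 0.12 leaving out 1 library. Leaving out 1 library gave -0.065 to 0.087 for BTG3 in TIGK and -0.025 to 0.073 for the TOB1 difference.

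For libraries of the same number in different groups, deviations from the group means had correlations of -0.0319 to 0.0257 (0 of 12 over 0.1). Whether such libraries were paired cannot be told from these values. With the replicate block, 6 of the 8 genes passed in TIGK, 6 in HaCaT, 6 and 4 between the lines and 4 in the difference. The block lost BTG2 (difference, adjusted p = 0.0163), ZFP36 (treated lines, 0.018) and ZFP36L1 (untreated lines, 0.0112).

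Over all genes, the responses differed for 385 higher and 496 lower in TIGK with edgeR, 689 and 737 with DESeq2, 769 and 519 without a filter, and 280 and 326 with the block. Pathway genes were recomputed only where they had passed the limit in the main fit, so a call could only be kept or lost. Of 1479 such values 132 missed the limit and 0 turned, which does not extend to pathway genes that had not passed. For genes with 3 or more heptamers the median response (log2) came to -0.08 in TIGK and -0.10 in HaCaT, and to -0.07 and -0.10 with Ensembl canonical transcripts, a choice added after seeing the data. For genes without a heptamer it was 0.05 and 0.11. The classes also differed in 3′ UTR length, with medians of 4367 bases and 736 bases. The cause of these changes was not tested.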
